A study of Triticum turgidum subsp. durum with 20 samples.

Results

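The domestication gene Q of wheat was followed through early spike development as its pair of homoeologs, the corresponding gene copies on the A and B genomes of durum wheat. They are TraesCS5A02G473800 (Q, also AP2L-A5), called the A copy here, and TraesCS5B02G486900 (AP2L-B5), called the B copy. Both were chosen by gene identifier, as 2 of the 190381 gene models of the A and B genomes and the unanchored scaffolds, and both were among the 48336 gene models with enough reads to be tested. RNA was taken from dissected apices of the spring durum cultivar Kronos, which carries a VRN-A1 allele with a deletion in its first intron and the Ppd-A1a allele of reduced photoperiod sensitivity, grown in long days. The 20 libraries were 4 biological replicates of each of 5 stages on the Waddington scale, which grades wheat apices from the vegetative meristem (W1) over W2, W3.0 and W3.25 to the terminal spikelet (W3.5). All plants were of this cultivar and no treatment was given, so W1 is the only baseline. A library of W1 or W2 was a pool of about 20 apices and a library of the later stages one of about 12, so a change in pool size cannot be told apart from the step between W2 and W3.0.

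Q encodes a transcription factor of the APETALA2 (AP2) family, whose members set the identity of meristems and floral organs. Free-threshing wheats carry the cultivated allele of the A copy, which gives a compact spike with softer glumes and which differs from the wild allele in the site where the microRNA miR172 pairs with the transcript. Transcripts of AP2 genes of this class are cut or kept from translation by miR172, so their RNA level is only one layer of their control. In hexaploid bread wheat the B copy has been described as a pseudogene that is still transcribed.

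The A copy lies on chromosome 5A at positions 650127258 to 650130900 on the minus strand, a span of 3643 bp, in IWGSC RefSeq v1.0 coordinates with the v1.1 gene models. The B copy lies on chromosome 5B at 658092415 to 658095219, also on the minus strand, and spans 2805 bp. The files count reads over the whole span, introns included and without regard to strand, and the span is the only length they give. No other gene model overlaps either copy, and the nearest one is 5290 bp away from the A copy and 2046 bp from the B copy. Reads that aligned to more than 1 place were not counted, and how many reads each copy lost in this way is not known.

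Depth was even over the stages, with 22229388 to 29655553 counted reads per library. Tested gene models were those kept by a filter on low counts, and an edgeR quasi-likelihood fit of all 20 libraries gave each gene 1 estimate of spread. A difference between 2 stages was called when it passed an adjusted p (Benjamini-Hochberg) of 0.01 in both edgeR and DESeq2 with the same sign. Replicates were separate pools of apices, and p-values measure the spread between such pools. Of the apex markers, LFY (TraesCS2B02G464200) went from 4.24 TPM at W1 to 29.0 TPM at W3.0, whereas TtWUSb (TraesCS2B02G775400LC) stayed between 0.01 and 0.27 TPM on average and was not tested. The putative CLV3 model TraesCS2A02G329300 was at 0.44 TPM at W1 and 4.73 TPM at W3.0, and TraesCS2B02G353000 was between 0.92 and 1.53 TPM at every stage. Both models of photosystem I subunit IV, taken as markers of green tissue, were lowest at W1 and reached 59.4 and 53.6 TPM at W2. Their W1 levels were 23.7 TPM for TraesCS5B02G496000 and 13.5 TPM for TraesCS5A02G482800. Whether they track leaf tissue in these apices was not tested. In whole apices, fewer cells of a type and less RNA per cell cannot be told apart.

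The A copy was an abundant transcript at every stage. In TPM, which divide counts by gene span and by the sum of such values in the library, it averaged 55.0 over the 20 libraries, above 94.9% of the gene models tested. The B copy averaged 15.1 TPM, above 78.1% of them. Behind these levels stood 1633 to 2389 reads per library on the A copy and 322 to 585 on the B copy.

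At W1 the A copy stood at 53.9, 50.5, 53.5 and 52.5 TPM in replicates 1 to 4, and at W2 at 58.2, 54.5, 53.1 and 56.8 TPM. The W3.0 libraries held 58.3, 53.4, 59.6 and 68.2 TPM, and replicate 4 was the highest of all 20. At W3.25 the values were 56.6, 52.6, 48.3 and 56.5 TPM, and at W3.5 they were 52.5, 53.7, 58.1 and 49.0 TPM. The 5 stages overlapped on this scale, with stage means of 52.6 ± 1.53, 55.6 ± 2.32, 59.9 ± 6.16, 53.5 ± 3.91 and 53.3 ± 3.74 TPM in stage order (SD, n = 4 each).

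The B copy was low at the first 2 stages and higher at the last 3. It stood at 11.6, 12.7, 12.6 and 12.5 TPM at W1 and at 12.8, 12.0, 12.8 and 12.9 TPM at W2. At W3.0 the libraries held 16.3, 15.7, 17.5 and 15.5 TPM, at W3.25 17.5, 14.96, 15.4 and 20.5 TPM, and at W3.5 15.6, 18.1, 18.6 and 16.8 TPM. On this scale every library of the 3 later stages lay above every library of W1 and W2, and replicate 4 of W3.25 was the highest of all. Stage means were 12.3 ± 0.526, 12.6 ± 0.406, 16.3 ± 0.917, 17.1 ± 2.53 and 17.3 ± 1.31 TPM (SD, n = 4 each).

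**Figure D1:**
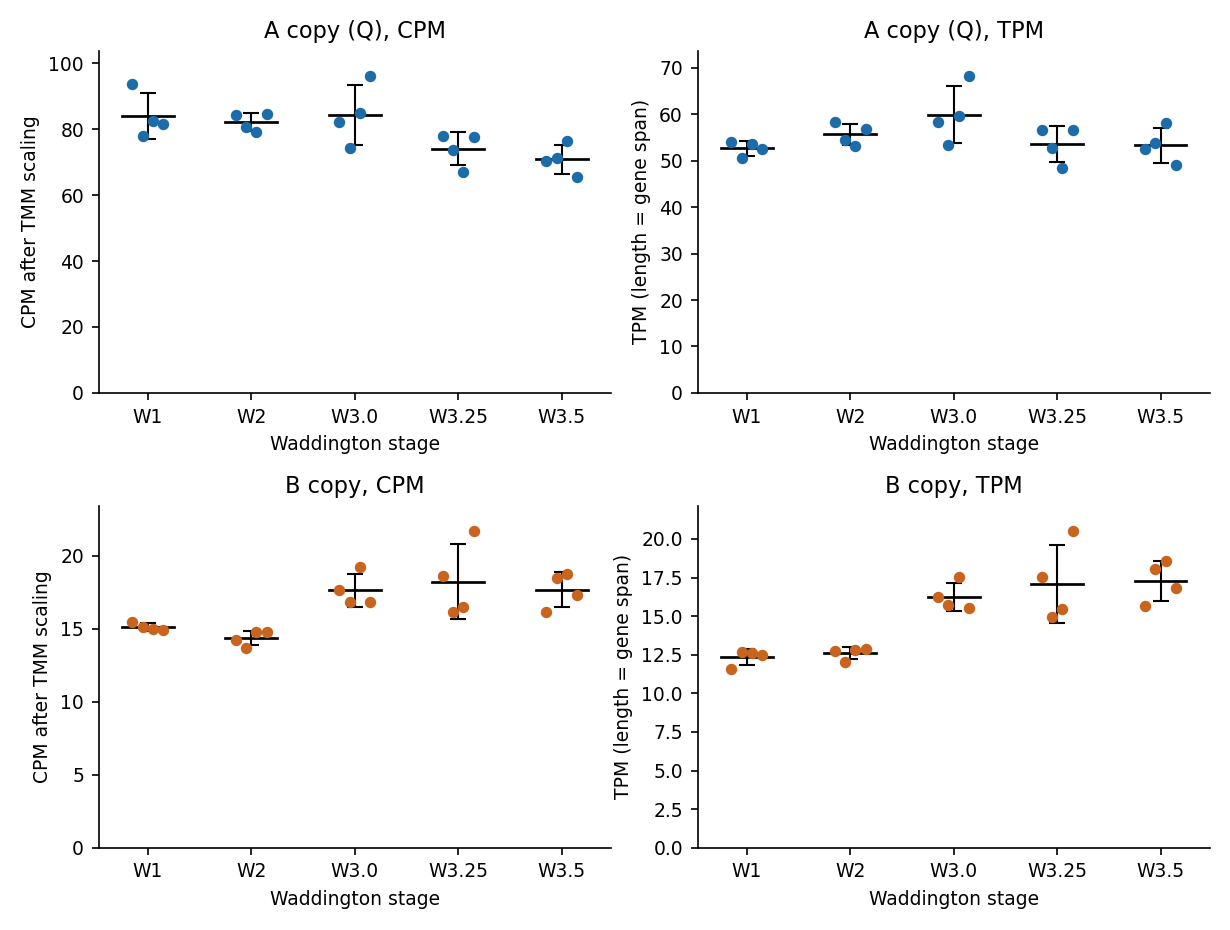
Level of the A copy (upper row) and the B copy (lower row) in each of the 20 libraries, in CPM after TMM scaling (left) and in TPM (right), against Waddington stage; points are libraries in the order of replicates 1 to 4, horizontal lines are stage means and bars are SD (n = 4). The B copy is higher from W3.0 on in both units, whereas the A copy at W3.25 and W3.5 has lower means than at W1 in CPM (74.1 and 70.9 against 84.0) but not in TPM (53.5 and 53.3 against 52.6).

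The tests used CPM, reads set to a common library size, scaled by TMM, a factor that makes the typical gene equal between libraries. On that scale the A copy averaged 84.0 ± 6.83, 82.2 ± 2.72, 84.3 ± 9.07, 74.1 ± 5.09 and 70.9 ± 4.38 CPM in stage order (SD, n = 4 per stage). The B copy averaged 15.1 ± 0.248, 14.3 ± 0.496, 17.6 ± 1.13, 18.2 ± 2.55 and 17.7 ± 1.20 CPM in the same order. Both copies changed over the 5 stages by edgeR's quasi-likelihood F test, where the A copy had an adjusted p of 0.00531 (F = 5.45) and the B copy one of 0.000829 (F = 7.66). The threshold was 0.05, and 63.1% of the gene models tested passed it, so a change over the stages was the common case. Without any of the 20 libraries in turn, the adjusted p of edgeR stayed at or below 0.0204 (A copy) and 0.0033 (B copy).

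From the first stage to the last, the A copy fell on the TMM scale, by 0.24 in log2 (SE 0.069), or to 0.844 times its W1 level, with an adjusted p of 0.00357 in edgeR and 0.00108 in DESeq2. Of the gene models tested, 49.2% were called between W1 and W3.5 and 26.9% were called lower. The W3.5 libraries held 70.2, 71.3, 76.2 and 65.6 CPM and the W1 libraries 93.8, 77.9, 82.5 and 81.6 CPM, with no overlap. This was the only one of the 10 pairs of stages in which the A copy was called. Without W1 replicate 1 the log2 change was -0.18 (adjusted p 0.0225 in edgeR), without W3.5 replicate 4 it was -0.21 (0.0189), and without W3.5 replicate 1 it was -0.24 (0.0102), and the call was lost in each case.

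The fall of the A copy depended on how the libraries were made comparable. The TMM factors ran from 0.89 to 0.94 at W1 and from 1.05 to 1.06 at W3.5. With library totals in their place, the A copy changed by -0.046 in log2 between these stages (edgeR adjusted p 0.563), and on log2(TPM + 0.1) by 0.017 (limma adjusted p 0.83). The median gene model moved up by 0.22 with library totals and by 0.28 on TPM, against 0.02 with TMM. Relative to that median, the A copy stood at -0.27 with TMM and -0.26 on TPM. Subtracting the median takes out most of the difference between scales. These values are thus close by construction and are no separate support for a fall. Its change over all 5 stages also missed the threshold with library totals (F = 2.73, edgeR adjusted p 0.0721).

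**Figure D2:**
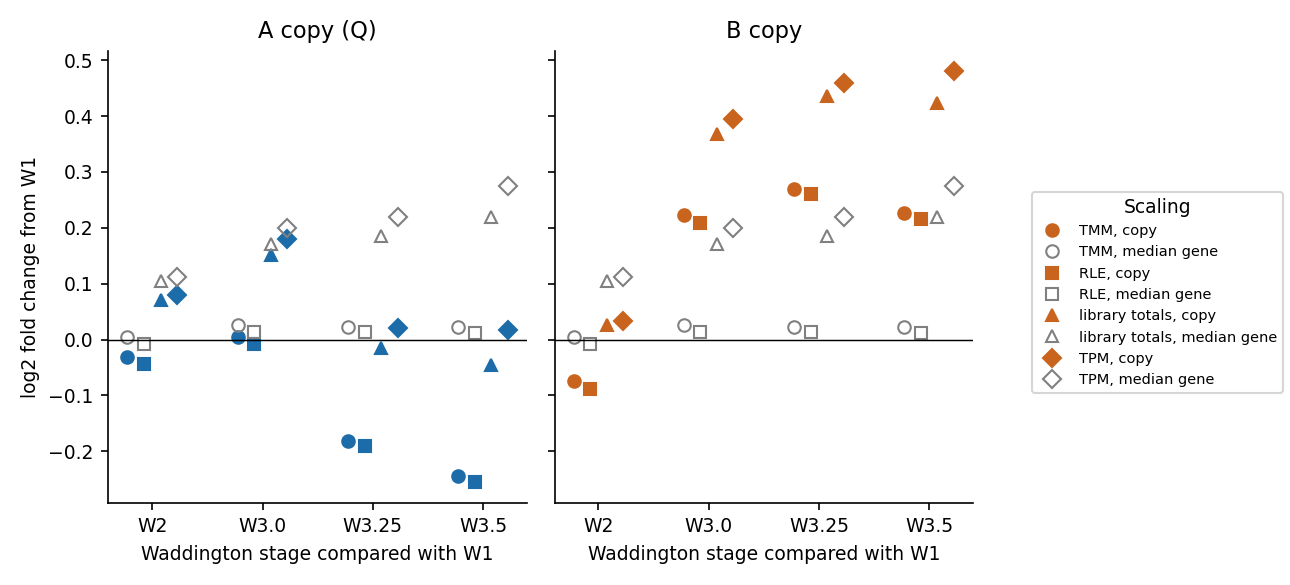
Log2 fold change from W1 to each later stage (x axis) of the A copy (left, filled blue) and the B copy (right, filled orange) under 4 ways of scaling the libraries, with the median of all gene models tested under the same scaling as open grey symbols. The A copy lies at -0.24 at W3.5 with TMM and at 0.017 on TPM, where the median gene model is at 0.28, whereas the B copy lies above 0 from W3.0 on under each of the 4.

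No step between neighbouring stages was called for the A copy. The log2 change from W1 to W2 was -0.03 (95% interval -0.18 to 0.12, edgeR adjusted p 0.762), where 22.9% of the gene models tested were called. From W2 to W3.0 it was 0.04 (-0.11 to 0.18, adjusted p 0.747 in edgeR), where 19.2% were called. The step from W3.0 to W3.25 was -0.19 (-0.33 to -0.04, adjusted p 0.237 in edgeR) and that from W3.25 to W3.5 was -0.06 (-0.21 to 0.09, adjusted p 0.799 in edgeR). Few gene models were called at these last steps, 0.821% and 0.701%. All intervals given here are unadjusted and rest on the 15 residual degrees of freedom. The p-values of edgeR also draw on the spread of other genes, so the intervals are slightly wider than those p-values imply. Ordered by TMM-scaled CPM, the stages ran W3.0, W1, W2, W3.25 and W3.5, and no neighbours in that order differed by the rule for a call. Over the longer spans from W2 and from W3.0 to W3.5, the log2 changes were -0.21 (edgeR adjusted p 0.0163) and -0.25 (0.0172), outside the threshold of 0.01, while 27% and 6.27% of the gene models were called. The changes from W1 to W3.0 (0.00, 0.958), from W1 to W3.25 (-0.18, 0.0269) and from W2 to W3.25 (-0.15, 0.101) were not called either, where 44%, 46.4% and 21.9% of the gene models were.

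The B copy rose at the step from W2 to W3.0, by 0.30 in log2 (SE 0.079), or 1.23 times, with an adjusted p of 0.00529 in edgeR and 0.00339 in DESeq2. At that step 7.64% of the gene models tested were called higher. It was also higher than at W2 in the W3.25 libraries, by 0.34 (adjusted p 0.00121 in edgeR and 0.000347 in DESeq2), and in the W3.5 libraries, by 0.30 (0.00342 and 0.00192). The shares of gene models called higher were 9.06% and 11.1% in these comparisons. In CPM the W2 libraries held 14.2, 13.7, 14.7 and 14.7, below all 12 libraries of the later stages, the lowest of which stood at 16.1. From W1 the B copy rose to W3.25 by 0.27 (SE 0.078, adjusted p 0.00445 in edgeR and 0.00501 in DESeq2), in a comparison in which 20.7% were called higher. The changes from W1 to W3.0 and to W3.5 were 0.22 (edgeR adjusted p 0.0182) and 0.23 (0.0146) and missed the threshold with TMM. With library totals they were 0.37 and 0.42 and passed it, with edgeR adjusted p of 0.000353 and 5.71e-05. The median gene model itself moved up by 0.17 and 0.22 on that scale. Relative to that median the B copy was higher by 0.20 in both comparisons.

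Among the 3 later stages the B copy was not called at any step, with log2 changes of 0.05 from W3.0 to W3.25 (95% interval -0.12 to 0.21), -0.04 from W3.25 to W3.5 (-0.21 to 0.12) and 0.00 from W3.0 to W3.5 (-0.16 to 0.17). From W1 to W2 the change was -0.08 (-0.25 to 0.10, edgeR adjusted p 0.503). Ordered by CPM the stages ran W3.25, W3.5, W3.0, W1 and W2, and again no neighbours in that order differed by the rule. The B copy was thus called in 4 of the 10 pairs and the A copy in 1. At the step from W1 to W2, where the photosystem I models rose by 1.22 and 1.88 in log2, neither copy was called. At the step from W2 to W3.0, where the B copy rose, the photosystem I models fell by 0.44 and 0.37. The part of leaf tissue in these values was not tested.

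None of the calls of the B copy held without each library in turn. From W2 to W3.25 the call was lost without W3.25 replicate 4, where the change was 0.25 (adjusted p 0.0102 in edgeR). From W2 to W3.0 it was lost without W2 replicate 1 (0.29), W2 replicate 2 (0.27), W3.0 replicate 1 (0.30) or W3.0 replicate 3 (0.26). From W2 to W3.5 it was lost without W2 replicate 2 (0.28), W3.5 replicate 2 (0.28) or W3.5 replicate 3 (0.27). From W1 to W3.25 it was lost without W1 replicate 2 (0.27), W1 replicate 3 (0.26), W1 replicate 4 (0.26), W3.25 replicate 1 (0.26) or W3.25 replicate 4 (0.18). The change was upward in all of these fits.

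Because both copies were read from the same libraries, their ratio needs no scaling between libraries. The A copy exceeded the B copy per kb of span in 20 of 20 libraries, with a mean log2 ratio of 1.88 ± 0.244 (SD, n = 20), or 3.67 times (sign-flip permutation test, two-sided, p = 2e-05 from 100000 resamples). The size of this excess depends on the span used as length, and its change over the stages does not.

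The ratio moved over the stages. In counts, log2 of A over B was 2.60, 2.37, 2.46 and 2.45 in the W1 libraries and 2.57, 2.56, 2.42 and 2.52 at W2. At W3.0 it was 2.22, 2.14, 2.14 and 2.51, and replicate 4 alone lay in the range of the earlier stages. At W3.25 it was 2.07, 2.19, 2.02 and 1.84, and at W3.5 it was 2.12, 1.95, 2.02 and 1.92. All 8 libraries of the last 2 stages lay below all 8 of the first 2. Stage means were 2.47 ± 0.096, 2.52 ± 0.066, 2.25 ± 0.177, 2.03 ± 0.146 and 2.004 ± 0.090 (SD, n = 4 each), and the counting error alone would give an SD of 0.067 to 0.088 in a library. The stages differed in this ratio by a permutation test of F over the 20 libraries (F = 15.3, p = 0.00021 from 100000 permutations).

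**Figure D3:**
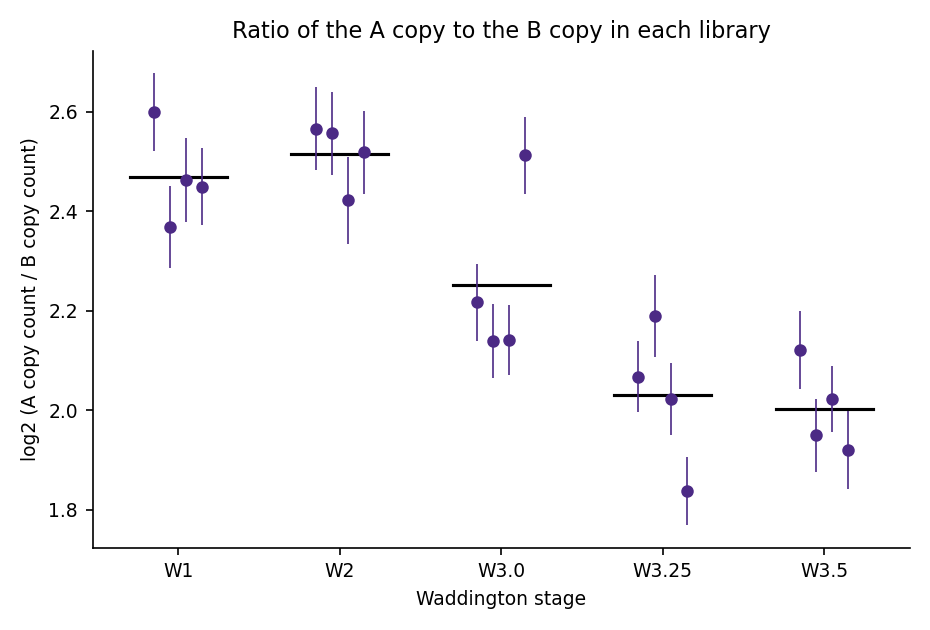
Log2 ratio of A copy reads to B copy reads in each library (y axis) against Waddington stage; points are libraries in the order of replicates 1 to 4, bars are the SD expected from counting error in that library, and horizontal lines are stage means (n = 4). The W3.25 and W3.5 libraries lie between 1.84 and 2.19, below all W1 and W2 libraries, and 1 W3.0 library lies at 2.51.

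Per kb of span the A copy was 4.27 ± 0.287, 4.41 ± 0.197, 3.69 ± 0.477, 3.16 ± 0.315 and 3.09 ± 0.194 times the B copy in stage order (SD, n = 4 per stage). Its share of the pair per kb went from 81.0% ± 1.01 at W1 and 81.5% ± 0.693 at W2 to 78.5% ± 2.003, 75.8% ± 1.87 and 75.5% ± 1.14 at the later stages. The sum of both copies was 65.0 ± 1.25, 68.3 ± 2.46, 76.1 ± 6.06, 70.6 ± 6.03 and 70.6 ± 4.72 TPM in that order.

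Between pairs of stages, an exact permutation test with 4 libraries on each side cannot go below 0.0286, which becomes 0.0571 after adjustment over the 10 pairs when 5 pairs reach it. The 5 pairs that reached it were W1 and W2 each against W3.25 and W3.5, with differences in mean log2 ratio of -0.44, -0.47, -0.49 and -0.51, and W3.0 against W3.5, with -0.25. None of the 10 pairs passed 0.05 after adjustment. The differences from W2 to W3.0 and from W1 to W3.0 were -0.26 (exact p = 0.0571) and -0.22 (exact p = 0.114), and the libraries overlapped. From W1 to W2 the difference was 0.05 (exact p = 0.457), and from W3.25 to W3.5 it was -0.03 (exact p = 0.771).

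A neighbouring gene model, TraesCS5A02G473700, has the same span as the A copy, 3643 bp, on the same strand of chromosome 5A at 650023706 to 650027348, 99909 bp away. It was singled out after its span was seen. Its sequence was not compared with that of Q here, so whether reads were shared between them is uncertain. Of 73665 adjacent pairs of high-confidence gene models, 386 have equal spans. The neighbour had 987 to 2021 reads per library, with means of 40.3 ± 3.67 TPM at W1 and 30.7 ± 1.44 TPM at W3.5 (SD, n = 4 each). It fell by 0.66 in log2 between these stages on the TMM scale (edgeR adjusted p 2.35e-08), more than the A copy did. On the same side of the B copy and on the same strand, 21504 bp away, TraesCS5B02G486700 spans 3742 bp. It fell by 0.69 in log2 between the same stages (edgeR adjusted p 2.74e-09). Whether these neighbours are homoeologs of each other was not tested.

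Of the 5 gene models on each side of the copies, 3 of 10 near the A copy and 2 of 10 near the B copy had enough reads to be tested. No reads at all were counted on 5 of the 10 near the A copy and on 7 of the 10 near the B copy. Of the tested neighbours, 2 near each copy were called between W1 and W3.5, where 49.2% of all gene models tested were.

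The range over the stages was narrow for both copies. The highest and lowest stage means of log2 CPM differed by 0.25 for the A copy, or 1.19-fold, and by 0.33 for the B copy, or 1.26-fold. Of the gene models tested, 19.05% had a smaller range than the A copy and 30.7% a smaller one than the B copy, and the median range was 0.51. Between libraries of a stage the SD in log2 was 0.107 (A copy) and 0.109 (B copy), against a median of 0.173. Both medians include gene models with far fewer reads, in which counting error is larger. Neither range nor SD was compared with that of gene models of like level.

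A list of 14 regulators of spikelets and flowers, taken from the study's text or network, moved far more. The list is not complete, as the network also holds others, such as AGL6-A1 and AG-D1. Its members were picked in part on these samples and are not independent of them. The study's network held only genes that changed over these samples. These 14 gene models include MADS-box genes of the AP1, SVP, PI and MADS32 groups, LFY, SPL genes, whose products activate AP1-type genes in Arabidopsis, and 1 further AP2 gene. All 14 were tested, and their ranges over the stages were 1.68 to 6.08 in log2 CPM, each larger than that of either Q copy. From W1 to W2, where no Q copy was called, 10 of the 14 were called higher and none lower, with a median log2 change of 1.24 against 0.00 over all gene models tested, of which 8.3% were called higher. From W2 to W3.0, where the B copy rose by 0.30, 11 were called higher and 1 lower, with a median of 1.102, where 7.64% of all were called higher. From W1 to W3.5, where the A copy fell on the TMM scale, 13 were higher and 1, SVP-B2 (TraesCS7B02G080300), was lower, by -2.51, against 22.3% and 26.9% of all gene models tested.

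TraesCS1A02G314200, the gene that the study's network labels AP2, went from 17.6 ± 3.03 TPM at W1 and 27.6 ± 3.3 at W2 to 79.9 ± 15.3 at W3.0 and 89.9 ± 2.90 at W3.25, and was at 66.0 ± 5.95 TPM at W3.5 (SD, n = 4 each). Its step from W2 to W3.0, 1.47 in log2, was called at the same step as that of the B copy. Its fall of 0.50 from W3.25 to W3.5 was called as well, at a step where neither Q copy was.

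AP1-A3 (TraesCS2A02G261200), a meristem identity gene of the MADS-box family, went from 0.37 ± 0.118 TPM at W1 to 31.0 ± 0.569 at W3.5, and AP1-B1 (TraesCS5B02G396600) from 1.15 ± 0.296 to 24.4 ± 0.652 TPM. LFY, which acts with AP1 in Arabidopsis, rose at the first step by 1.42 in log2 and at the step after it by 1.17. SVP-B2, of a MADS-box group whose namesake delays the floral transition in Arabidopsis, stood at 39.4 ± 1.16 TPM at W1 and 8.31 ± 0.916 TPM at W3.5. In wheat, the study describes the group's members SVP1, VRT2 and SVP3 as promoting the change to an inflorescence meristem. The class B floral organ genes PI-A1 (TraesCS1A02G264300) and the 1B copy (TraesCS1B02G275000) were higher by 2.21 and 1.74 in log2 at W3.5 than at W3.0, an interval in which the Q copies were not called.

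The other regulators also had wider courses than Q. MADS32-A1 (TraesCS3A02G284400) went from 18.1 ± 2.29 to 167.0 ± 9.97 TPM between W1 and W3.5, and MADS32-B1 (TraesCS3B02G318300) from 4.89 ± 0.874 to 42.0 ± 1.64 TPM. The SPL models TraesCS2B02G250900 and TraesCS2A02G232400 went from 4.40 ± 0.497 to 148.6 ± 8.65 TPM and from 2.37 ± 0.176 to 102.1 ± 6.54 TPM. The SPL models TraesCS7A02G246500, TraesCS6A02G110100 and TraesCS7B02G144900 were highest at W3.0, with 90.0 ± 1.999, 54.2 ± 1.52 and 31.6 ± 1.12 TPM.

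**Figure D4:**
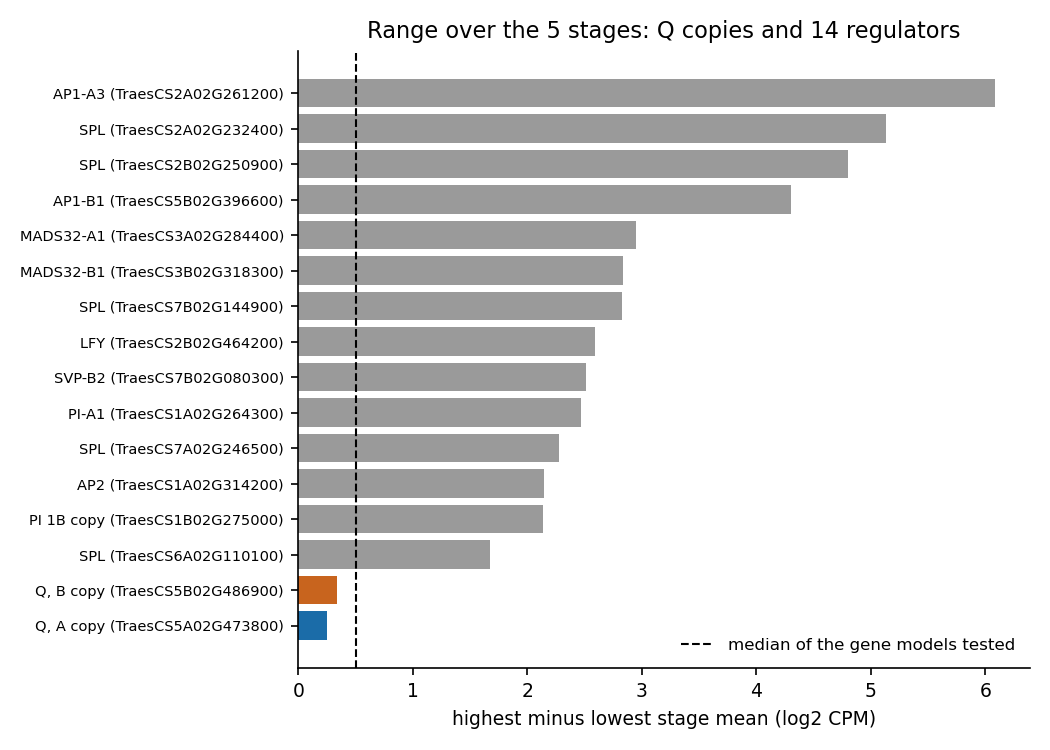
Difference between the highest and the lowest stage mean of log2 CPM (x axis) for the Q copies (coloured) and the 14 named regulators (grey), sorted by size; the dashed line is the median of all gene models tested. The A copy at 0.25 and the B copy at 0.33 lie left of the median at 0.51, and the regulators lie between 1.68 and 6.08.

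The copies did not follow each other over the libraries. The correlation of their log2 CPM over the 20 libraries was -0.23 (Pearson's r; Spearman's rho -0.26), given as a description because the libraries share stages. Among the other 48335 gene models tested, the B copy ranked 31579 in likeness to the A copy, and the A copy 30637 in likeness to the B copy. With the stage means subtracted, r was 0.36 and these ranks were 6688 and 3596.

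The 5 gene models most like the A copy over the 20 libraries were TraesCS6B02G199600, TraesCS1B02G502700LC, TraesCS4B02G364700, TraesCS2B02G193700 and TraesCS5A02G444300, with Pearson's r from 0.85 to 0.88. With the stage means subtracted, their r was 0.66 to 0.80. The same libraries had served to pick them, so this is no separate support for the likeness. Ranked by r with stage means subtracted, 0 of the 5 stayed on the list. Likeness over the libraries did not mean likeness in size. From W1 to W3.5 TraesCS1B02G502700LC changed by -2.54 in log2, on few reads. It had 83 over the 4 libraries of W1, 135 over those of W3.0 and 15 over those of W3.5. TraesCS4B02G364700 changed by -1.39 and TraesCS2B02G193700 by -0.77. The change was -0.22 for TraesCS5A02G444300, the most abundant of them with 923.3 TPM, and -0.18 for TraesCS6B02G199600 (edgeR adjusted p 0.0747). Those most like the B copy were TraesCS6A02G086900, TraesCS4A02G312100LC, TraesCS7B02G144000, TraesCS7A02G295700 and TraesCS6B02G171200, with r from 0.86 to 0.89. With the stage means subtracted, their r was 0.59 to 0.73. Of these, TraesCS7B02G144000 changed by 0.42 in log2 from W1 to W3.5 and TraesCS6A02G086900 by 0.24. TraesCS6B02G171200 had few reads, with 1 over the 4 libraries of W1, 0 over those of W2 and 70 over those of W3.5. They are the highest of 48335 values of r, and the files give no gene names for them. By rank correlation, 0 of the 5 most like the A copy and 2 of the 5 most like the B copy stayed on the list.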

How the data were processed

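The authors trimmed single reads of 100 bp, aligned them with STAR 2.7.5 to the A and B genomes plus unplaced scaffolds, and deposited raw, not normalized read counts per gene model. These came from featureCounts 2.0.0 with 40 as the lowest mapping quality. The 79047 D-genome gene models, all at 0, were left out. Gene span is the only length in the file, so TPM here include introns. Reads carry no molecular identifiers, so counting errors cover counting only.

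Counts were analysed in R 4.3.3 with edgeR 4.0.16 (filterByExpr with a minimum count of 10 and total of 15, TMM, quasi-likelihood test, stage as factor, 15 residual degrees of freedom), DESeq2 1.42.0 (Wald test) and limma 3.58.1, with adjustment over all 48336 gene models. Log2 CPM used a prior count of 2 and the homoeolog ratio a pseudocount of 0.5. Permutation tests ran in Python 3.11.15 with scipy 1.17.1, and figures in matplotlib 3.10.9. The scripts were tested on simulated data. All 20 libraries entered every fit unless stated.

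The genes named are the Q copies, the markers and 14 regulators taken from the study's text or network. Also named are the 5 gene models with the highest Pearson's r to each copy. TraesCS5A02G473700 was chosen after its span was seen, and TraesCS5B02G486700 was set beside it afterwards. Members and lists were chosen with earlier results of these data known. A further list of AP2-like genes was not used here, since the reference table at hand shares no identifiers with the counts, and no sequences are shown for the same reason. Alternatives changed the tool, test, filter, scaling, threshold, libraries in the fit, pseudocount and measure of likeness. Those with library totals, with TPM and with the neighbour's counts were chosen after seeing the data.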

Additional observations from a re-analysis of the deposited data

Results flagged for a closer look

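One library stood apart from its group in a check of the highest and lowest library of each stage, run on 35 groups of 4 values of the Q copies and their ratio, of which chance alone marks about 1 in 20. At W2 the B copy was at 12.0 TPM in replicate 2 and between 12.8 and 12.9 TPM in the other 3, so that the gap made up 0.888 of the whole range. In TMM-scaled CPM the same library was at 13.7 against 14.2 to 14.7, and did not stand apart. Without it, the rise of the B copy from W2 to W3.0 was 0.27 (edgeR adjusted p 0.0206) and no longer called.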

How the results depend on the processing

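The calls of Q lay near the threshold. Counting error alone gives the log2 ratio of the copies an SD of 0.067 to 0.088 in a library. The SD between replicates was near this at W1 (0.096), W2 (0.066) and W3.5 (0.090) and larger at W3.0 (0.177) and W3.25 (0.146). At an adjusted p of 0.05 in both tools, further changes of the B copy were called from W1 to W3.0 (0.22) and to W3.5 (0.23). Of all gene models tested, 54% and 58.9% were called there. Further changes of the A copy were called from W1 to W3.25 (-0.18), W2 to W3.5 (-0.21) and W3.0 to W3.5 (-0.25). The shares of all gene models called there were 56.4%, 37.6% and 11.1%. From W3.0 to W3.5, 13 of the 14 regulators in place of 8 were called, against 11.1% and 6.27% of all gene models tested. The last change of the A copy was also called at 0.01 by DESeq2 alone (-0.25), with edgeR's likelihood ratio test (-0.25) and without the filter (-0.25). With only the compared stages in the fit, the A copy was called from W2 to W3.5 (-0.21) and the B copy was not from W1 to W3.25 (0.29). With library totals, the A copy lost its call from W1 to W3.5 (-0.046) and over the 5 stages (F = 2.73), and the B copy gained calls from W1 to W3.0 (0.37) and W3.5 (0.42). On TPM the A copy turned to 0.017 from W1 to W3.5, and the B copy was called at 0.40 and 0.48. From W1 to W3.0 and W3.5 the median gene model moved up as well. Its rise was 0.17 and 0.22 with library totals and 0.20 and 0.28 on TPM.

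Leaving out each library in turn gave ranges of 0.18 to 0.32 for the B copy from W1 to W3.25, 0.20 to 0.27 from W1 to W3.5, 0.26 to 0.32 from W2 to W3.0, 0.25 to 0.40 from W2 to W3.25 and 0.27 to 0.34 from W2 to W3.5. For the A copy they were -0.28 to -0.18 from W1 to W3.5, -0.25 to -0.18 from W2 to W3.5 and -0.31 to -0.18 from W3.0 to W3.5. The ratio of the copies over the 5 stages kept an F of 12.96 to 24.6, with a permutation p of at most 0.00035. With the reads of TraesCS5A02G473700 added to the A copy it had an F of 19.7, a value that includes the neighbour's own fall and says nothing on shared reads. The correlation between the copies was 0.36 with stage means subtracted, and of the 5 genes most like each copy 0 (A) and 2 (B) stayed by rank correlation and 0 and 0 with stage means subtracted.

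Replicate numbers did not pair the libraries. The 40 pairs with the same number in different stages had correlations of -0.06 to 0.10 in their deviations from the stage means, and 3 of 20 libraries correlated best with their own number. With the replicate number as a block, the B copy was not called from W1 to W3.25 (0.27), and every other call of the copies was as without the block. The ratio over the 5 stages had an F of 15.3 (permutation p = 0.00037 within numbers).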
